A study of Bos taurus with 129 samples.

Results

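Whole-blood gene expression on day 60 was compared with day 45 within each of 26 beef steers, 12 that stayed healthy and 14 labelled as having had bovine respiratory disease (BRD). Members were the libraries whose time point is Day45 or Day60, which gave 52 libraries, against 77 others in the series taken on days 0, 13 and 28. Each animal contributed a library on both days, so each animal served as its own control. The cattle were commercial crossbred steers bought through an order-buyer, hauled to a research unit, vaccinated on arrival and again later, and kept in drylot pens. INR cattle received sulfate sources of copper, cobalt, manganese and zinc in feed, AAC cattle received amino acid-complexed sources, and COMBO cattle received the complexed feed plus an oral trace mineral drench before shipment, at enrollment and with any treatment for illness. The healthy cattle comprised 4 AAC, 4 COMBO and 4 INR animals, and the BRD cattle comprised 4 AAC, 3 COMBO and 7 INR animals. The AAC cattle came from pens 2 and 8, the healthy COMBO cattle from pen 5, the BRD COMBO cattle from pen 6, and the INR cattle from pens 3, 4 and 7, so pen and supplement cannot be told apart. Liver was biopsied on day 60 and not on day 45, and pens were rotated between sampling days. All 26 animals went through both days together, so day, age, season, handling and pen cannot be told apart.

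Blood RNA comes from a mixture of red cell precursors, platelets, granulocytes, monocytes and lymphocytes. Its profile shifts when the share of those cells shifts and also when cells change the genes they use, and in bulk blood fewer cells of a type and less RNA per cell cannot be told apart. Interferon-stimulated genes respond to viral infection or vaccination, immediate early genes respond within minutes to many stimuli, and sterol genes are switched on together by the transcription factor SREBP2 when cell cholesterol is low.

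The smallest of the 52 libraries held 35806665 counts and the largest 61692136 (median 46501100). No pair of libraries held identical counts. Total count did not differ detectably between days, with a mean log2 ratio of -0.01 and a permutation p of 0.796 (26 animals, 2-sided sign-flip test). Mitochondrially encoded genes held a median of 2.96% of counts on day 45 and 2.82% on day 60 (permutation p = 0.999). Hemoglobin genes held a median of 0.430% of counts on day 45 (lowest 0.0105%, highest 5.54%) and 0.190% on day 60 (lowest 0.00825%, highest 1.29%). That share was lower on day 60 in 18 of 26 animals, with a mean log2 ratio of -1.21 ± 2.41 (SD, n = 26 animals, permutation p = 0.0178, or 0.0356 after Benjamini-Hochberg adjustment over the 4 library measures). The share of counts in the 10 most abundant genes had a median of 5.60% on day 45 and 5.18% on day 60, and was lower in 18 of 26 animals (permutation p = 0.00706, or 0.0282 after the same adjustment).

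Animals 30, 40 and 54 stood apart in how far the cytosolic ribosomal protein genes moved between the days. The mean log2 change of those genes was -1.01 in healthy INR animal 30, 0.60 in BRD INR animal 40 and 0.65 in BRD COMBO animal 54, and healthy AAC animal 48 was close behind at 0.59. The day 60 RNA of animal 40 had the lowest integrity of the study per its methods. Counts are therefore also given without animals 30, 40 and 54, an alternative chosen after the values had been seen. Those animals were picked by their expression values, so counts without them are a description and not independent support.

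In all 26 cattle together, 2149 of 18150 tested genes (11.8%) changed at a false discovery rate (FDR) below 0.10 in the paired edgeR quasi-likelihood test. Day 60 was higher for 1233 genes (6.79%) and lower for 916 genes (5.05%). The changes were small: the median absolute log2 fold change of the called genes was 0.17, and the median standard error over all genes was 0.072. Without animals 30, 40 and 54 the count was 2990 of 18388 tested genes, 1652 higher and 1338 lower. Of these, 1850 were also called with all animals and in the same direction.

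The gene with the smallest p was ESPN, which encodes espin, a protein that bundles actin filaments. ESPN had a median of 12.2 CPM (counts scaled to library size) on day 45, with a range of 4.10 to 19.423, and a median of 16.5 CPM on day 60, with a range of 5.37 to 20.8. Its level rose in 26 of 26 animals, although the ranges of the 2 days overlapped because animals differed from one another, and the log2 fold change was 0.39 ± 0.042 (SE, n = 26 animals, FDR 7.78e-06). It was also the only gene called within the COMBO cattle (log2 fold change 0.51, FDR 0.0128, 7 animals), where 0.00551% of genes were called. TNFRSF25, a death-domain receptor gene that lies within 1 kb of ESPN in the bovine assembly ARS-UCD2.0, was also higher (log2 fold change 0.16, FDR 0.0328).

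FBF1, which encodes a protein of the ciliary transition fibers, and S100A13, a calcium-binding protein gene, were the other genes among the 12 of smallest p that rose in 26 of 26 animals. FBF1 moved from a median of 25.004 CPM (19.7 to 32.1) to 27.2 CPM (20.6 to 34.5), a log2 fold change of 0.16 ± 0.024 (FDR 0.00114). S100A13 moved from a median of 14.6 CPM (5.62 to 31.3) to 17.395 CPM (7.42 to 32.4), a log2 fold change of 0.31 ± 0.051 (FDR 0.00198). The ranges of the days overlapped for both genes, so the change was visible within animals and not as a separation of the days. Its size differed between animals for S100A13. The log2 change was 0.94 in animal 54, 0.92 in animal 40 and 0.84 in animal 48, but 0.047 in animal 9. S100A1, within 1 kb of S100A13, was also called (log2 fold change 0.24, FDR 0.0931).

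BLK, which encodes a B cell kinase of the SRC family, rose from a median of 87.9 CPM (51.4 to 134) to 101.04 CPM (57.8 to 173), in 24 of 26 animals (log2 fold change 0.29 ± 0.042, FDR 0.00105). FRA10AC1, a nuclear protein gene, rose from a median of 15.2 CPM (12.28 to 17.5) to 18.1 CPM (14.98 to 23.8), in 25 of 26 animals (log2 fold change 0.25 ± 0.033, FDR 0.000218). TPM2, a tropomyosin gene, rose from 15.7 CPM (11.2 to 22.1) to 19.6 CPM (14.9 to 28.1), in 22 of 26 animals (log2 fold change 0.40 ± 0.061, FDR 0.00114). The other genes of the 12 were SCRN2, HAP1, FARP2, KIFC2, SCG5 and AKAP8L, with log2 fold changes between 0.21 and 0.36 and the same direction in 22 to 25 animals.

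**Figure D1:**
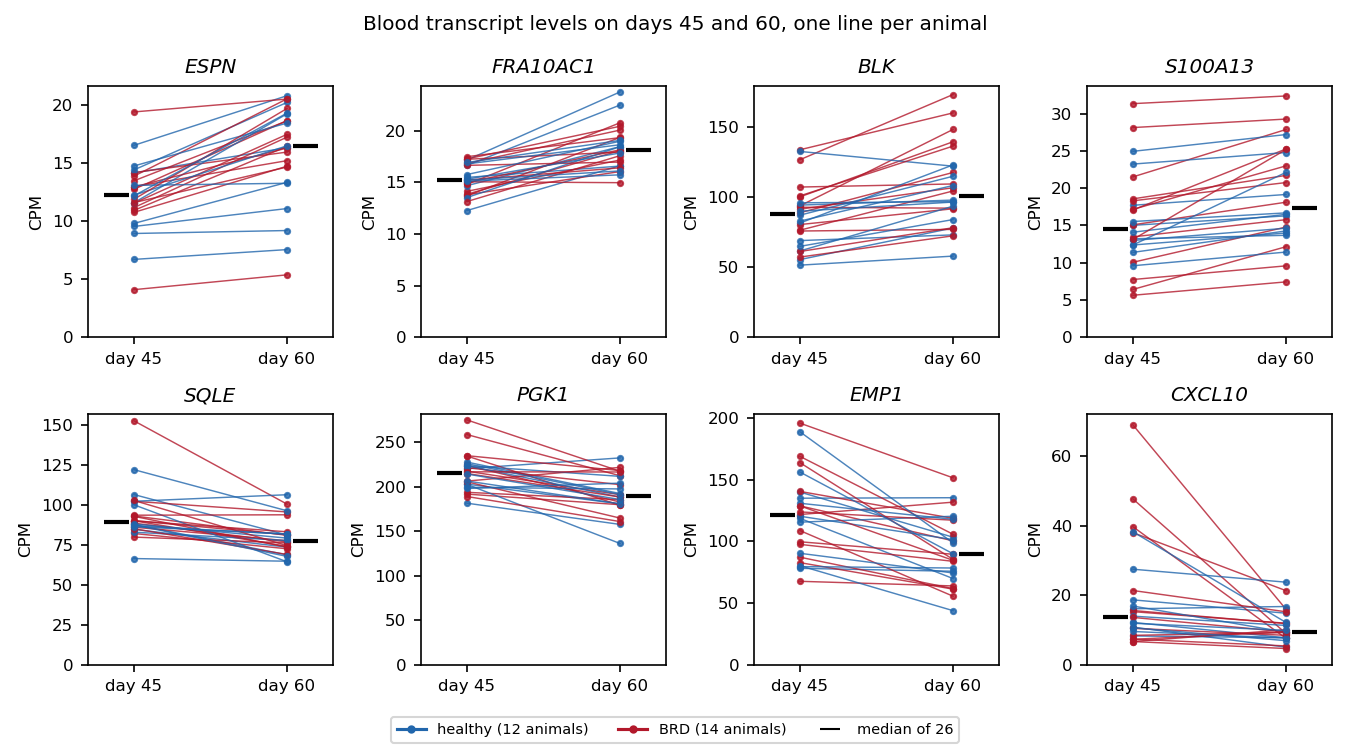
CPM of 8 genes in each animal on days 45 and 60, with one line per animal, healthy cattle in blue, BRD cattle in red and black dashes at the medians of the 26 animals. ESPN rose in 26 of 26 animals and SQLE fell in 24 of 26, while the ranges of the days overlapped for every gene shown.

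Among the genes lower on day 60, the smallest p belonged to SQLE, squalene epoxidase, a rate-controlling enzyme of cholesterol synthesis. SQLE had a median of 89.5 CPM (66.6 to 153) on day 45 and 77.9 CPM (64.6 to 106.62) on day 60. It was lower in 24 of 26 animals (log2 fold change -0.22 ± 0.035, FDR 0.00114). ACAT2, which makes the acetoacetyl-CoA that feeds the same pathway, fell from a median of 38.9 CPM (30.4 to 53.5) to 35.8 CPM (22.996 to 46.2), and its overlapping neighbour TCP1 was also lower (log2 fold changes -0.16 and -0.12).

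EMP1, a membrane protein gene, fell from a median of 121.1 CPM (67.7 to 196) to 89.8 CPM (43.9 to 152), in 23 of 26 animals (log2 fold change -0.38 ± 0.065, FDR 0.0024). PGK1, a glycolytic enzyme gene, fell from 216 CPM (181 to 275) to 190 CPM (136 to 232), also in 23 animals (log2 fold change -0.18 ± 0.031, FDR 0.00264). Other genes among the 12 lower ones of smallest p, which were chosen by that p, moved less but in nearly every animal. PSMD11, a proteasome subunit, and ARF4, a small GTPase of the Golgi, were each lower in 25 of 26 animals (log2 fold changes -0.12 ± 0.021 and -0.13 ± 0.021). UBA1, the main ubiquitin-activating enzyme, was lower in 24 of 26 animals (log2 fold change -0.12 ± 0.022). TICAM2, an adaptor of Toll-like receptor 4, YWHAG, GXYLT2, CHP1 and the mitochondrial transfer RNA locus KEH36_t03 completed the 12, with log2 fold changes between -0.45 and -0.16.

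The largest changes among called genes that moved one way in at least 20 animals were mostly in genes of low level. HDAC10, a deacetylase gene, rose from a median of 0.775 CPM (0.213 to 3.44) to 1.94 CPM (0.275 to 6.52), a log2 fold change of 0.92 ± 0.27 (FDR 0.0346, higher in 20 of 26 animals). ATP2C2, a calcium and manganese pump gene, had a log2 fold change of 0.45 ± 0.14 (FDR 0.0431). SLC4A1, the red cell anion exchanger, had a median of 0.709 CPM (0 to 15.7) on day 45 and 0.352 CPM (0 to 2.34) on day 60 (log2 fold change -1.20 ± 0.43, FDR 0.0845), a call that was lost as any of 13 single animals was left out. DPM2, a mannosyltransferase subunit gene, had a log2 fold change of -0.82 ± 0.25 (FDR 0.0435). CXCL10, an interferon-induced chemokine, fell from a median of 13.9 CPM (6.73 to 69.1) to 9.49 CPM (4.72 to 23.8), in 22 of 26 animals (log2 fold change -0.60 ± 0.14, FDR 0.0127).

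Sterol synthesis genes were lower on day 60 for most members of their list. Of 22 tested genes of cholesterol synthesis and efflux, 13 (59.1%) were lower and 0 were higher, against 5.05% of all genes lower, and their median log2 fold change was -0.14 against -0.004 over all genes. SREBF2, which encodes SREBP2 itself, fell from a median of 482 CPM (399 to 733) to 420.2 CPM (352 to 525.5), in 24 of 26 animals (log2 fold change -0.20 ± 0.039, FDR 0.00402). NSDHL, a sterol dehydrogenase gene, was also lower in 24 of 26 animals (log2 fold change -0.18 ± 0.035, FDR 0.00392). HMGCS1 had the largest change of the list, -0.52 ± 0.17 (FDR 0.0618), with day 45 levels between 23.3 and 137 CPM. Averaged over the list, 22 of 26 animals were lower on day 60, 9 of 12 healthy and 13 of 14 BRD. Without animals 30, 40 and 54, 11 were lower and 1 was higher, against 1338 lower and 1652 higher of 18388 tested genes.

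Interferon-responsive lists averaged lower on day 60 in most animals. Of 33 type I interferon-stimulated genes, 8 (24.2%, against 5.05% of all genes) were lower and 0 higher (against 6.79%), 32 of 33 had a negative fold change, and the median was -0.26. DDX58, the RNA sensor RIG-I, fell from a median of 27.7 CPM on day 45 to 16.2 CPM on day 60, in 17 of 26 animals (log2 fold change -0.84 ± 0.22, FDR 0.0185), and RSAD2, the antiviral enzyme viperin, had a log2 fold change of -0.59 ± 0.22 (FDR 0.0982). Day 45 held the widest spread: OAS2 ranged from 198 to 6168 CPM on day 45 and from 146 to 2011 CPM on day 60. ISG15, a secreted ubiquitin-like antiviral protein, did not pass the test, at a log2 fold change of -0.60 ± 0.25 (FDR 0.153). The count of called members was between 4 and 18 as each animal was left out in turn. It was 9, all of them lower, without animals 30, 40 and 54, against 1338 lower of 18388 tested genes.

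Of 15 interferon-gamma and guanylate-binding genes, 5 (33.3%, against 5.05%) were lower and 0 higher, and 15 of 15 had a negative fold change (median -0.18). They were IRF1 (log2 fold change -0.32 ± 0.073), the peptide transporter TAP1 (-0.15 ± 0.044), GBP5 (-0.43 ± 0.14), GBP6 and CXCL10. GBP6 had a median of only 0.133 CPM on day 45. Averaged over the list, 22 of 26 animals were lower on day 60, with animal means between -1.26 and 0.33.

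Among 25 immediate early genes, 5 (20%, against 5.05% of all genes) were lower, 0 were higher and 25 of 25 had a negative fold change (median -0.14). KLF4, a transcription factor of monocytes and epithelia, fell from a median of 27.2 CPM (10.9 to 42.3) to 22.3 CPM (7.24 to 40.8), in 23 of 26 animals (log2 fold change -0.33 ± 0.067, FDR 0.0051). NR4A1, an orphan nuclear receptor induced by antigen and stress, was lower in 22 of 26 animals (log2 fold change -0.31 ± 0.069, FDR 0.00844). FOS and EGR1, the best known genes of the class, did not pass the test (log2 fold changes -0.15 ± 0.13 and -0.14 ± 0.056). Of 24 NF-kB and TNF feedback genes, 6 (25%) were lower, among them NFKB1 (-0.11 ± 0.024, FDR 0.00996) and BCL3 (-0.31 ± 0.086, FDR 0.0251), and 1 was higher, the neutrophil chemokine gene CXCL8 (0.24 ± 0.087, FDR 0.088), while 7 of the 24 had a positive fold change. The count of lower NF-kB genes was between 3 and 7, and that of lower immediate early genes between 4 and 8, as each animal was left out.

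Monocyte and antigen-presentation genes included further lower members. Of 19 monocyte genes, 4 (21.1%, against 5.05% of all genes) were lower: the pattern receptors TLR2 (-0.22 ± 0.049, FDR 0.00862) and TLR4 (-0.25 ± 0.076), the lipopolysaccharide co-receptor CD14 (-0.25 ± 0.089) and SIRPA (-0.18 ± 0.064). Of 15 MHC class II genes, 4 (26.7%) were lower, including BOLA-DRA (-0.14 ± 0.043, FDR 0.0446) and IFI30 (-0.21 ± 0.060, FDR 0.0286). Of 20 neutrophil granule and alarmin genes, 3 (15%) were lower, among them S100A12 and the cathelicidin CATHL2, which had a median of 0 CPM on day 60. LTF, the granule protein lactoferrin, did not pass the test (-0.41 ± 0.26, FDR 0.361). As each animal was left out, these counts ran from 2 to 7 for monocyte, 2 to 4 for MHC class II and 0 to 5 for neutrophil genes. Averaged over each list, animals were split: the mean of the monocyte list was lower in 17 of 26 animals and that of the MHC class II list in 13 of 26.

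Of 33 hemoglobin and red cell genes, 8 (24.2%, against 5.05% of all genes) were lower, 24 did not pass the test and 1, the heme-making enzyme FECH, was higher (0.15 ± 0.048, FDR 0.0516), with a list median of -0.24. The count of lower members was between 5 and 13 as each animal was left out, and 12 without animals 30, 40 and 54, by DESeq2 and by limma-voom. Without animals 30, 40 and 54, 1338 of 18388 tested genes were lower. ALAS2, the first enzyme of erythroid heme synthesis, ranged from 4.03 to 660 CPM on day 45 and from 2.63 to 111.4 CPM on day 60 (log2 fold change -1.27 ± 0.43, FDR 0.0693). HBB, the beta-globin gene, did not pass the test (-1.23 ± 0.47, FDR 0.108). The list includes the hemoglobin genes that define the share of counts given above, so the 2 results are not independent. The mean of the list was lower in 17 animals and higher in 9. The part of the hemoglobin share in the other results was not tested.

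Of 23 platelet and megakaryocyte genes, 8 (34.8%, against 6.79% of all genes) were higher, 15 did not pass the test and 0 were lower. The list median was 0.18, and 5 of the 23 had a negative fold change. The mean of the list was higher in 18 of 26 animals, 7 healthy and 11 BRD, with animal means between -0.50 and 0.81. PF4, a chemokine stored in platelet granules, rose from a median of 249 CPM (108.3 to 621) to 330 CPM (120 to 659), in 22 of 26 animals (log2 fold change 0.26 ± 0.073, FDR 0.0297). TUBB1, the tubulin of the platelet rim, rose in 23 of 26 animals (0.25 ± 0.073, FDR 0.037), and SELP, P-selectin, in 21 (0.25 ± 0.071, FDR 0.0314). These calls depended on the model, since 0 of the 23 were called by limma-voom with animal as a random effect, and 5 were called without animals 30, 40 and 54. Without these animals 1652 of 18388 tested genes were higher.

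Splicing factor genes formed the other list with many higher members. Of 36 genes, 13 (36.1%, against 6.79% of all genes) were higher and 3 (8.33%, against 5.05%) lower, with a median of 0.08, and the mean of the list was higher on day 60 in 21 of 26 animals. SRSF5, a serine/arginine-rich splicing factor, rose from a median of 149 CPM (114.8 to 204) to 187 CPM (139 to 241), in 22 of 26 animals (log2 fold change 0.29 ± 0.054, FDR 0.00336). LUC7L3, a U1-associated factor, rose in 23 animals (0.24 ± 0.045, FDR 0.00384), and HNRNPH1 in 20 (0.27 ± 0.060, FDR 0.0086). SRSF1, of the same family as SRSF5, moved the other way (-0.45 ± 0.13, FDR 0.0392, lower in 21 animals), as did the spliceosome core genes PRPF8 (-0.10 ± 0.031) and SF3A1 (-0.09 ± 0.030). Without animals 30, 40 and 54, 18 were higher and 4 lower, against 1652 higher and 1338 lower of 18388 tested genes.

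Lymphocyte lists held called genes in both directions, and the T cell and NK shares were near or below those of all genes. ZAP70, the kinase of the T cell receptor, was higher in 22 of 26 animals (0.18 ± 0.032, FDR 0.00264), and 2 of 24 T cell genes (8.33%, against 6.79% of all genes) were higher and 0 lower (median 0.01). WC1-12 and WC1.3, scavenger receptors of bovine gamma-delta T cells, were both higher (log2 fold changes 0.32 ± 0.057 and 0.21 ± 0.040, FDR 0.00282 and 0.00402). They were named after their values had been seen, and members of this multigene family share sequence, so reads may be split among them. Of 20 B cell genes, 2 (10%) were higher, among them BLK, and 2 (10%, against 5.05%) lower, FCRL5 and PAX5, with a list median of -0.04. Among the 24 NK and cytotoxic genes 1 was higher (4.17%, against 6.79% of all genes), the receptor gene KLRF1. In that list 1 was lower (4.17%, against 5.05%), the Fc receptor gene FCGR3A. Plasma cell and eosinophil and basophil genes had 1 lower member each (8.33% of either list, against 5.05%), POU2AF1 and PRG3.

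Of 38 metallothionein and trace mineral transport genes, 2 (5.26%) were higher and 3 (7.89%) lower, shares near those of all genes (6.79% and 5.05%), with a median of -0.02. CCS, the copper chaperone of superoxide dismutase, rose from a median of 53.7 CPM (43.99 to 83.3) to 62.6 CPM (47.53 to 83.9) in 20 of 26 animals (0.19 ± 0.042, FDR 0.00721), and SLC11A2, a divalent metal importer, also rose (0.11 ± 0.033). SLC31A1, the copper importer, fell from 28.3 CPM (21.1 to 39.1) to 25.9 CPM (17.423 to 32.1) in 23 of 26 animals (-0.17 ± 0.040, FDR 0.0115). The zinc importer SLC39A1 and HP, which encodes haptoglobin, an acute phase protein, were lower as well (-0.15 ± 0.038 and -0.40 ± 0.12). MT2A, a metallothionein that binds zinc and copper, did not pass the test (-0.22 ± 0.11, FDR 0.236).

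Against 5.05% lower and 6.79% higher over all genes, 4 of 31 proteasome genes (12.9%) were lower, 7 of 73 nuclear-encoded respiratory chain genes (9.59%) were lower and 1 (1.37%) higher, and 3 of 27 heat shock and ER chaperone genes (11.1%) were lower. Of 78 cytosolic ribosomal protein genes 0 were called by edgeR (1 at an unadjusted p under 0.05), 0 by limma-voom and 1 by DESeq2. Over all genes 4066 of 18150 (22.4%) had an unadjusted p under 0.05 in edgeR. As each animal was left out, the count of lower members ran from 3 to 13 for the proteasome, 2 to 15 for the respiratory chain and 2 to 7 for the chaperone list. Without animals 30, 40 and 54, 22 proteasome, 33 respiratory chain, 9 chaperone and 7 ribosomal protein genes were lower. Over all genes, 1338 of 18388 were lower without these animals, which had been picked by their ribosomal protein genes. A glycolysis list, drawn up after the values had been seen, held 6 lower genes of 23 (26.1%), among them PGK1, LDHA (-0.13 ± 0.033) and PKM (-0.14 ± 0.039). It held 11 lower genes without animals 30, 40 and 54. Of 19 circadian clock genes 3 (15.8%) were higher: PER3 (0.32 ± 0.083), DBP (0.15 ± 0.047) and ARNTL (0.11 ± 0.037). Of 30 cell cycle genes and of 24 fatty acid oxidation genes 1 each was lower (3.33% and 4.17%). Of 20 glucocorticoid-induced genes, 0 were called by edgeR (2 at an unadjusted p under 0.05), limma-voom or DESeq2. Of 16 connective tissue genes, 0 were called by edgeR (2 at an unadjusted p under 0.05) or limma-voom and 2 by DESeq2. Without animals 30, 40 and 54, edgeR called 2 glucocorticoid-induced genes and 1 connective tissue gene higher. FKBP5, the most used marker of glucocorticoid action, had a log2 fold change of -0.14 ± 0.087.

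**Figure D2:**
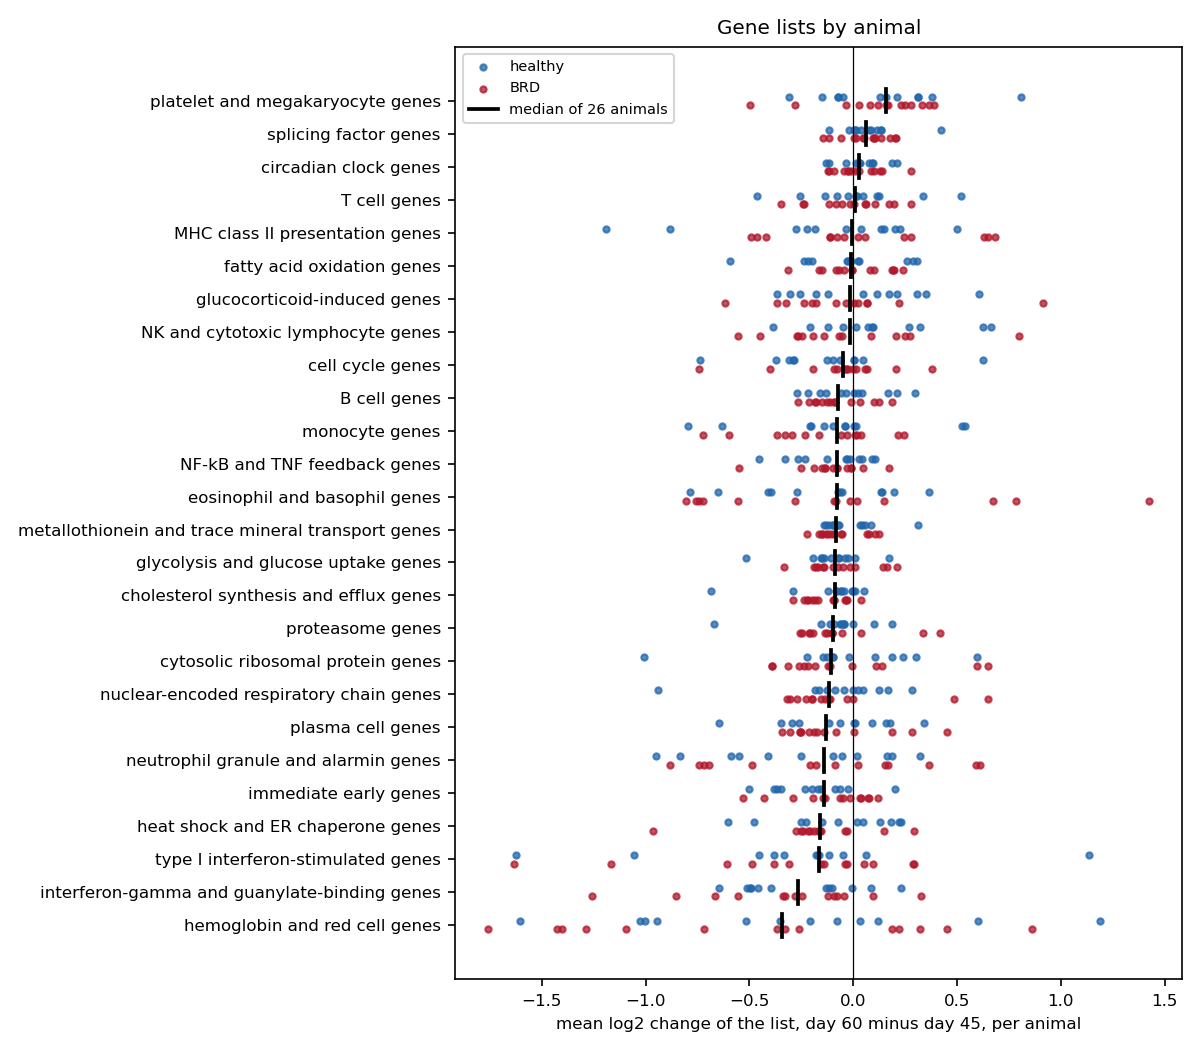
Mean log2 change of each gene list from day 45 to day 60 in each animal, with healthy cattle in blue, BRD cattle in red and a bar at the median of the 26 animals. Interferon-gamma and cholesterol lists lay below 0 in 22 of 26 animals each, the splicing list above 0 in 21, and animals of both health classes lay on both sides of 0 for every list.

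The libraries of the other days showed where days 45 and 60 stood. Among the 916 genes lower on day 60, 60.9% had the highest of their 5 daily medians on day 45, and 30.3% had the lowest on day 60. Among the 1233 genes higher on day 60, 73.2% had their lowest median on day 45, and 27.4% had the highest on day 60. Over all tested genes, 19.5% were highest and 22.2% lowest on day 45, while 17% were highest and 16.8% lowest on day 60. Both days chose the called genes, so these shares are a description, made over the 25 animals with all 5 libraries. The same held for several lists: relative to each animal's own day 45 level, the heat shock list had a median of -0.20 on day 0, -0.21 on day 13, -0.26 on day 28 and -0.17 on day 60. Its day 60 median was -0.03 in healthy and -0.19 in BRD cattle. The interferon-gamma list was likewise lower on every other day, at -0.14, -0.19, -0.19 and -0.27. The type I interferon list was highest on day 0 (0.53) and lowest on day 60 (-0.17) over all cattle and in BRD cattle, while in healthy cattle it was lowest on day 28 (-0.36, against -0.19 on day 60). Cholesterol genes were lowest on day 0 (-0.41) and stood at 0.02 on day 28 and -0.10 on day 60.

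**Figure D3:**
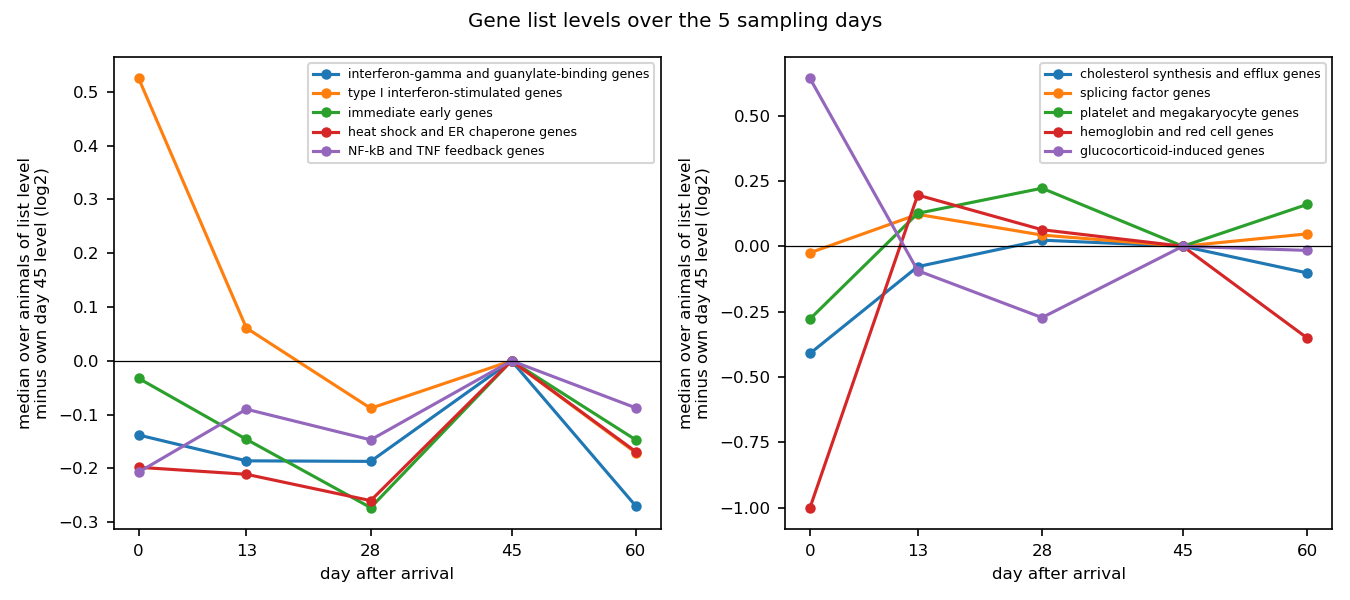
Median over animals of the mean log2 CPM of each list, minus the same animal's day 45 level, at each of the 5 sampling days. Heat shock, NF-kB, immediate early and interferon-gamma lists were below 0 on each of the other days, and red cell genes lay at -1 on day 0 and -0.35 on day 60.

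Healthy and BRD cattle were then compared. In the 14 BRD cattle 827 genes (4.56%) were called, 501 higher (2.76%) and 326 lower (1.8%), and 3018 genes had an unadjusted p under 0.05. In the 12 healthy cattle 0 genes were called by edgeR, 1621 had an unadjusted p under 0.05 and the smallest FDR was 0.104, shared by ESPN and FRA10AC1. By DESeq2 65 genes were called in healthy cattle, and by limma-voom 1, FRA10AC1. The test of the difference itself, BRD minus healthy, called 0 genes by edgeR and by limma-voom and 3 by DESeq2. In edgeR 338 genes (1.86%) had an unadjusted p under 0.05. Evenly spread p-values would put a share of 0.05 there, so this low count does not show that the classes agree. Without animals 30, 40 and 54 the share was 7.34%. In counts simulated with known differences, the edgeR test called 4 of 50 genes with a log2 difference of 0.25. It called 22 of 50 at a difference of 0.5, so differences of this size could be missed. So a call in BRD cattle and none in healthy cattle was not shown to be a difference in response. Health class was also not balanced over supplement and pen, and cannot be fully told apart from them. INR animals made up 7 of 14 BRD and 4 of 12 healthy cattle. The healthy COMBO cattle came from pen 5 and the BRD COMBO cattle from pen 6, and pen 7 held BRD cattle only.

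The direction of change agreed widely between the classes, which share no animal. Of the 827 genes called in BRD cattle, 804 (97.2%) had the same sign in healthy cattle, against 67.9% of all tested genes. Their median change was 0.20 in BRD cattle, where they were chosen, and 0.12 in the same direction in healthy cattle, where 376 of them had an unadjusted p under 0.05. Chosen the other way, 98 of the 100 genes of smallest p in healthy cattle had the same sign in BRD cattle, with medians of 0.28 in healthy and 0.20 in BRD cattle. Each class thus showed the smaller change for the genes chosen in the other. Over all 18150 genes the changes of the classes had a Pearson r of 0.20 and a Spearman rho of 0.42, given as a description since genes are not independent and both classes were sampled on the same days.

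**Figure D4:**
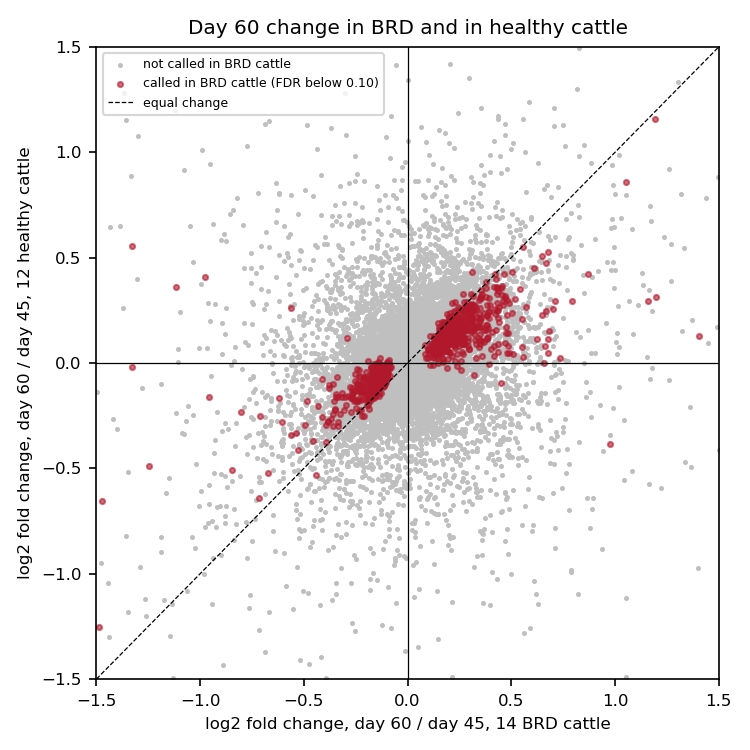
Log2 fold change from day 45 to day 60 in 14 BRD cattle (x axis) and 12 healthy cattle (y axis) for each gene, with the genes called in BRD cattle in red and a dashed line at equal change. Most red points lie in the lower left and upper right, 804 of 827 with the same sign in both classes, and 143 genes, 8 of them called, lie outside the axes.

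Of the genes with the smallest p in all cattle, SQLE changed by -0.22 ± 0.052 in healthy and -0.22 ± 0.048 in BRD cattle, a difference of -0.0009 ± 0.071. ESPN rose in 12 of 12 healthy (0.34 ± 0.061) and 14 of 14 BRD cattle (0.44 ± 0.057), with a difference of 0.10 ± 0.083. EMP1 was lower in 10 of 12 healthy and 13 of 14 BRD cattle, with changes of -0.37 ± 0.097 and -0.39 ± 0.090. Among the 24 genes of smallest p, the lowest unadjusted p for a difference was 0.0477, for GXYLT2, a xylosyltransferase gene (-0.28 ± 0.12 in healthy and -0.60 ± 0.11 in BRD cattle). No difference between the classes was tested for a list. The median of the cholesterol list was -0.13 in healthy and -0.15 in BRD cattle, that of the type I interferon list -0.27 and -0.26, that of the platelet list 0.19 and 0.18, and that of the splicing list 0.08 in both. Larger gaps in the medians were seen for the interferon-gamma list (-0.20 in healthy and -0.33 in BRD cattle), the neutrophil list (-0.28 and -0.11), the red cell list (-0.19 and -0.30), the MHC class II list (-0.07 and -0.15), the monocyte list (-0.13 and -0.21) and the heat shock list (-0.08 and -0.15). The mean of the heat shock list was lower in 6 of 12 healthy and 12 of 14 BRD cattle. The medians had opposite signs for the T cell (0.06 and -0.01), glucocorticoid (0.04 and -0.06), circadian (0.05 and -0.003) and connective tissue lists (-0.02 and 0.003). Among the genes of largest change, DPM2 changed by -1.17 in healthy and -0.55 in BRD cattle, and ATP2C2 by 0.65 and 0.27, with an unadjusted p for the difference of 0.23 and 0.175.

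The 5 genes of smallest p for a difference between the classes had an FDR of 1. They were LOC100301305, LOC101906531, the actin nucleation subunit ARPC4, C1H3orf70 and the lysosome adaptor PLEKHM2. ARPC4 ranged from 4.77 to 112.9 CPM on day 45 and from 3.53 to 120 CPM on day 60, and changed by 0.56 ± 0.40 in healthy and -1.33 ± 0.36 in BRD cattle. It overlaps TADA3, which changed by 0.08 in healthy and 0.16 in BRD cattle. PLEKHM2 changed by -0.64 ± 0.24 in healthy and 0.48 ± 0.22 in BRD cattle. SLC25A34, which the search for neighbouring genes did not return for PLEKHM2, changed by 0.41 in healthy and -0.97 in BRD cattle. Values of overlapping or adjacent genes are uncertain, because reads could be divided between them in counting.

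The number of genes called in BRD cattle depended on single animals. It fell to 286 without BRD animal 21, 313 without 18, 324 without 39, 442 without 54, 469 without 23 and 489 without 27, and rose to 1313 without healthy animal 30, whose values enter the shared estimate of the spread. Without animals 30, 40 and 54 it was 3038, of which 85.3% had the same sign in healthy cattle, against 64% of all genes. In that fit the difference test still called 0 genes, its smallest FDR was 0.632, and 1349 genes (7.34%) had an unadjusted p under 0.05. The count for all cattle ranged from 1658 (without animal 21) to 2579 (without animal 54).

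**Figure D5:**
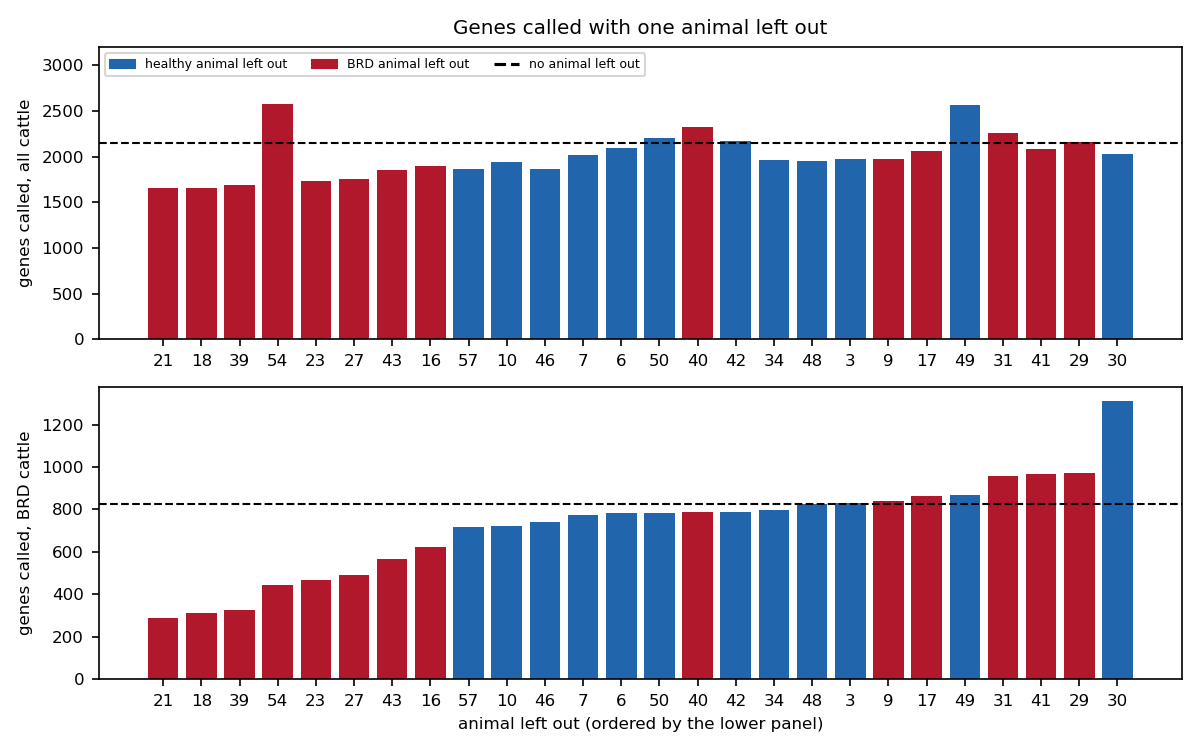
Genes called at an FDR below 0.10 with each animal left out in turn, in all cattle (upper panel) and BRD cattle (lower panel), with bars colored by the health class of the animal left out and dashed lines at the counts with all animals, 2149 and 827. The BRD count ranged from 286 to 1313 and the count for all cattle from 1658 to 2579.

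By supplement, 915 genes (5.04%) were called in the 11 INR cattle, 498 higher (2.74%) and 417 lower (2.3%), 1 in the 7 COMBO cattle and 0 in the 8 AAC cattle, with 3325, 2056 and 862 genes at an unadjusted p under 0.05 in edgeR. The group sizes differed, and the test of a difference among the 3 supplements called 0 genes by edgeR and by limma-voom and 1 by DESeq2, LOC101906511, with 857 genes (4.72%) at an unadjusted p under 0.05 in edgeR. The 5 genes of smallest p were LOC101906511, BANP, MAST1, LOC112449597 and FUT10. BANP, which encodes a nuclear matrix-binding protein, changed by -0.12 in AAC, -0.42 in COMBO and 0.34 in INR cattle (FDR 0.982). SQLE changed by -0.16 in AAC, -0.19 in COMBO and -0.29 in INR cattle, and ESPN by 0.35, 0.51 and 0.35.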

How the data were processed

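Whole blood was taken from 26 steers into Tempus RNA tubes, and 52 libraries of days 45 and 60 were analysed. The authors prepared stranded mRNA libraries, sequenced all libraries pooled over the same lanes, trimmed reads with Trimmomatic 0.39, mapped them to ARS-UCD1.3 with HISAT2 and assembled transcripts with StringTie 2.2.0, per the methods and the submitters' processing notes. The deposited table holds raw counts of 32395 genes, derived by prepDE from transcript coverage and not tallied reads, so overlapping genes can exchange counts. Samples were grouped by the deposited time point, treatment and disease labels, and paired by animal number.

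Genes passing filterByExpr (18150) were scaled by TMM and fitted in edgeR 4.0.16 (R 4.3.3) with a common dispersion of 0.0658 (biological coefficient of variation 25.6%), animal as a block and a day term for all cattle, for each health class or for each supplement. Quasi-likelihood F-tests were adjusted by Benjamini-Hochberg over all genes, and genes with an FDR below 0.10 were called. Standard errors (SE) were derived from the F statistic. CPM values were TMM-scaled. Library measures were tested by 2-sided sign-flip permutation with 100000 resamples in scipy 1.17.1. The pairing comes from the animal numbers in the labels: with 100 genes chosen on days 0 to 28, 26 of 26 libraries of each day matched their own animal best, and day 45 and day 60 deviations of the same animal correlated at a median of 0.414 (lowest 0.105). P-values measure the spread between these animals.

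Named genes were the 12 of smallest p in each direction among called genes of at least 1 CPM with a gene symbol, the 3 of largest change in each direction among called genes moving that way in at least 20 animals, the 5 of smallest p in each test of a difference, and the members of smallest p in 26 gene lists. Other list members, among them HMGCS1, OAS2, RSAD2, ISG15, FOS, EGR1, LTF, HBB, ALAS2, MT2A and FKBP5, and the genes WC1-12, WC1.3 and SLC25A34 were named after their values were seen. The members and lists were chosen with earlier results of these data known, and the glycolysis list after the values had been seen. Neighbouring genes came from RefSeq for ARS-UCD2.0, another build than that of the counts, in which 38 of 39 named genes were found. The methods were tested on simulated data. Alternatives used DESeq2 1.42.0, limma 3.58.1 with voom, RLE factors, a trended dispersion, other filters, an FDR of 0.05, no animal block, all libraries of the series in one fit, and each animal left out. Leaving out animals 30, 40 and 54 and fitting each health class alone were chosen after seeing the data. Some genes are not reported here.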

Additional observations from a re-analysis of the deposited data

Results flagged for a closer look

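The change of the hemoglobin share of counts in animal 48, a log2 ratio of -1.131, stood apart from those of the other 3 healthy AAC animals. The change of total count in animal 3, a log2 ratio of 0.02262, stood apart from those of the other 3 healthy COMBO animals. Chance marks about 1 in 20 such groups, and 40 group extremes were examined.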

How the results depend on the processing

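With animal as a block the count for all cattle stayed within 1.5 times of 2149 in 8 other settings: 3005 genes by DESeq2, 2030 by limma-voom, 2096 with a trended dispersion, 2146 with RLE factors, 1587 with no filter on low counts, 2221 with a mean of at least 1 CPM, 1629 with all libraries of the series in one fit and 2328 without animal 40. At an FDR below 0.05 it was 1287, and 279 in BRD cattle. Without the replicate block by animal, which ignores the pairing, it was 209, and 0 genes were called in BRD cattle by edgeR (1491 at an unadjusted p under 0.05), while the hemoglobin share changed by -1.21 with p = 0.0563 in a permutation test.

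In BRD cattle 1398 genes were called by DESeq2, 475 with no filter, 377 with each health class fitted alone and 3038 without animals 30, 40 and 54. In healthy cattle DESeq2 called 65, limma-voom 1 (FRA10AC1), and RLE factors and the 1 CPM mean each 2 (ESPN and FRA10AC1). DESeq2 called 3 genes for BRD minus healthy and 1 for supplements, and the fit of all libraries called 1 for supplements, LOC112441542. Without animals 30, 40 and 54 the mean log2 change was 0.012 for total count and 0.00297 for mitochondrial share, against -0.0143 and about 0. The cause of these shifts was not tested. With each animal left out, counts ranged from 286 to 1313 in BRD and from 0 to 2 in healthy cattle, total count change from -0.0367 to 0.0115 and mitochondrial share change from -0.0288 to 0.0141.

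Among the genes named for their p or size of change in all cattle, CXCL10 lost its call with all libraries in one fit (FDR 0.123), ATP2C2 with limma-voom, and SLC4A1 with a trended dispersion, with no filter and as any of 13 single animals was left out. Without the block 15 of these genes lost their call, and none reversed in the alternatives run. Members of gene lists were followed by list counts. Without the block 5 of 22 cholesterol and 3 of 15 interferon-gamma genes were lower and 8 of 36 splicing genes higher. Over all genes that fit called 76 lower and 133 higher of 18150. In edgeR 0 platelet, type I interferon, immediate early and T cell genes were called without the block. With so few genes called in that fit, 0 members says little about lists of this size. With the block 8, 8, 5 and 2 were called, and 12, 20, 10 and 4 had an unadjusted p under 0.05. Over all genes 4066 of 18150 (22.4%) had such a p in edgeR with the block. The T cell count, 4 of 24, was not above that share. With limma-voom 0 platelet genes were called, so PF4, TUBB1 and SELP lost their calls. The median standard error of the difference between health classes was 0.145 over all genes.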
